A study of Eonycteris spelaea and Mus musculus with 51 samples.

Results

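Blood of the cave nectar bat Eonycteris spelaea was compared between recovery and heat, using every row of the deposited bat count table. These are 6 of the 51 bulk RNA sequencing libraries of the series, which covers blood, lung and muscle of this bat and of the mouse. The 3 recovery libraries came from bats given 1 h of in vivo heat shock and then 4 h of recovery. The 3 heat libraries came from bats sampled at the end of the same 1 h of heat shock. The 3 control libraries of bat blood, taken at baseline without treatment, are used to set levels and to estimate the spread. Every treated group thus carries the heat shock, and no group was sampled at the later time without it, so effects of heat, handling and elapsed time cannot be told apart. The labels give no age, sex or origin of the bats. They do not say that replicates were separate animals or that the 3 tissues came from the same animals, so p-values measure the spread between these libraries, which may be partly technical.

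The heat shock response is a program in which heat-activated transcription factors, heat shock factor 1 first among them, switch on genes for chaperones and their co-chaperones. Chaperones such as HSP70 and HSP90 hold and refold damaged proteins, and co-chaperones steer their cycles of ATP use. As the damage is cleared the chaperones bind the factor again and transcription of these genes declines. Whole blood is a mixture of red cells, platelets and several kinds of white cells, so in bulk RNA a lower level can mean fewer cells of a type or less RNA per cell, and these cannot be told apart here.

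Most bat rows cannot be read by gene name. Of the 30017 rows, 18157 carry human Ensembl identifiers that the files do not pair with names, 10328 are numbered non-coding RNAs, 762 carry mouse identifiers and 167 carry a name. The low-count filter left 16038 rows, among them 151 with a symbol. Of 30 lists of stress, immune and blood cell genes, which hold 637 different symbols, 29 had no row with a member's name, and the endothelial list had 1, KDR, whose row was not tested. The blood label could therefore not be checked against the listed red cell, platelet, white cell or neutrophil markers. Other blood cell genes with a symbol, mainly T cell receptor segments, which mark T cells, were found by name and are described below.

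Total counts were 15.5, 12.5 and 20.7 M in recovery libraries 1, 2 and 3, against 19.98, 21.02 and 21.65 M in the heat libraries and 17.4 to 19.8 M in the controls. Recovery library 2 stood apart from the rest of bat blood. Its Pearson correlation with each of the other 8 libraries, over log2 CPM of the 16038 rows, was 0.786 to 0.882, while the other 8 correlated with each other at 0.892 to 0.962. It was the highest of the 9 libraries in 29.7% of rows and the lowest in 31.5%. Rows of 10 human identifiers with a suffix took 4.64% of its counts, against 0.779 to 1.61% in the other 8 libraries. The main counts of calls and the changes of named rows are therefore also given without this library. So are the medians of the rows lower at recovery in bat lung and of the T cell receptor rows. Values that moved by less than 1.5 times and kept their sign may be left out. What sets recovery library 2 apart was not tested.

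To find which transcripts differed between recovery and the end of heat shock, counts were tested with edgeR's quasi-likelihood test, with p-values adjusted by the Benjamini-Hochberg method over all 16038 rows. No row (0%) had an adjusted p under 0.05, the threshold for a call. The smallest adjusted p was 0.172. At an unadjusted p under 0.05 there were 1670 rows (10.4%), of which 1111 (6.93%) were higher and 559 (3.49%) lower at recovery. DESeq2, run on the same 9 libraries, called 119 of 15721 rows (0.757%), 38 of them higher and 81 lower. The common biological coefficient of variation, the spread between libraries of a group beyond counting error, was 0.536 in bat blood, against 0.343 in bat lung and 0.295 in bat muscle. Without recovery library 2, edgeR again called 0 rows, with 912 at an unadjusted p under 0.05, of which 443 were higher and 469 lower, so the excess of higher rows was not present without it. DESeq2 then called 97, 26 higher and 71 lower. Without recovery library 1, DESeq2 called 335 higher and 116 lower, and without recovery library 3, 293 higher and 82 lower, so the direction with more DESeq2 calls turned on single libraries. Leaving out heat library 1 gave 6 edgeR calls, all lower at recovery.

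**Figure D1:**
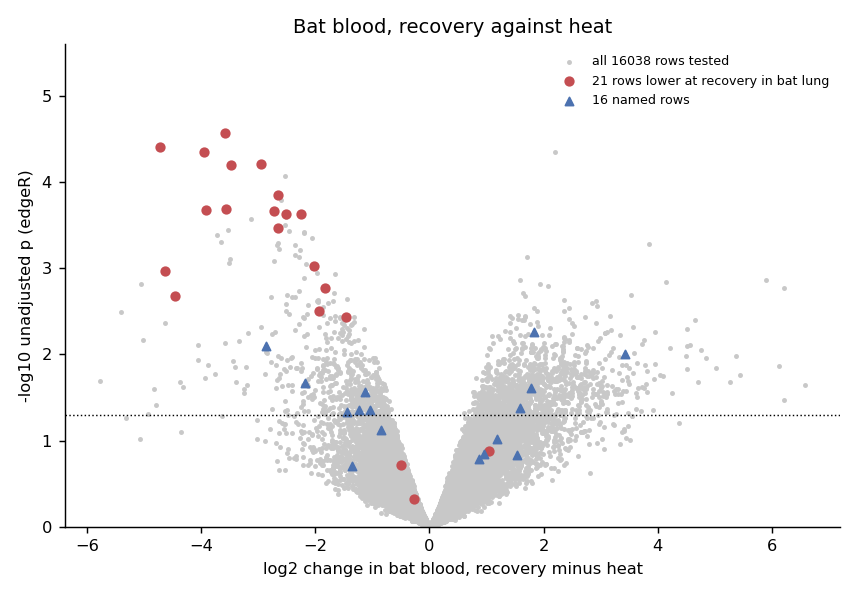
Each point is 1 of 16038 rows, placed by its log2 change in bat blood, recovery minus heat (horizontal), and by the −log10 of its unadjusted edgeR p (vertical); the dotted line marks an unadjusted value of 0.05. Most of the 21 rows that were lower at recovery in bat lung (red circles) lie at the upper left, the 16 named rows (blue triangles) lie lower down on both sides, and no row passed the adjusted threshold of 0.05.

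Rows without a symbol were all but 151 of the 16038 tested. Among them, the 2 with the smallest edgeR p in each direction are described. The row ENSG00000168439 was at 23.7, 10.3 and 26.3 CPM (read counts scaled by library size and composition) in recovery libraries 1, 2 and 3, against 165, 777 and 639 CPM in the heat libraries. Controls were at 185, 234 and 423 CPM. Every recovery library was thus below every heat and every control library, and heat library 1 was below all 3 controls while the other two heat libraries were above them. The log2 change of ENSG00000168439, recovery minus heat, was −4.71 ± 0.69 (SE), with an adjusted p of 0.172 in edgeR and of 2.22e-10 in DESeq2.

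The row ENSG00000100591 had a similar order of libraries. It stood at 20.6, 20.7 and 22.7 CPM in recovery blood, against 97.8, 351 and 321 CPM at heat and 107, 132 and 174 CPM in controls. The recovery libraries again lay below all 6 others and were close to each other, and heat library 1 again lay under the controls. Its log2 change was −3.59 ± 0.50 (SE), with an adjusted p of 0.172 in edgeR and of 1.98e-09 in DESeq2. Relative to control, the recovery level of ENSG00000100591 was lower by a log2 change of −2.69, and that of ENSG00000168439 by −3.80. Both rows passed the edgeR threshold when heat library 1 was left out, with log2 changes of −3.98 for ENSG00000100591 and −5.14 for ENSG00000168439.

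In the other direction, ENSG00000160856 was at 55.7, 37.1 and 34.4 CPM at recovery, against 9.83, 9.58 and 8.41 CPM at heat and 10.2, 10.9 and 10.8 CPM in controls. Heat and control libraries kept to a narrow band, and all 3 recovery libraries stood above it. The log2 change of ENSG00000160856 was 2.19 ± 0.33 (SE), with an adjusted p of 0.172 in edgeR and of 6.74e-08 in DESeq2. The non-coding RNA ncRNA2149 was much scarcer, at 2.92, 1.00 and 2.16 CPM at recovery, against 0.210, 0.0452 and 0.156 CPM at heat and 0.273, 0.426 and 0.338 CPM in controls. Its groups did not overlap either, and its log2 change was 3.85 ± 0.78 (SE), with an adjusted p of 0.300 in edgeR and of 0.00201 in DESeq2. The DESeq2 call of ncRNA2149 was lost without heat library 2, at an adjusted p of 0.0616, and without recovery library 1 DESeq2 gave it no adjusted p. The other 3 kept theirs with any 1 library left out. These 4 rows were picked as the lowest p-values in each direction, so their size here is that of selected rows.

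**Figure D2:**
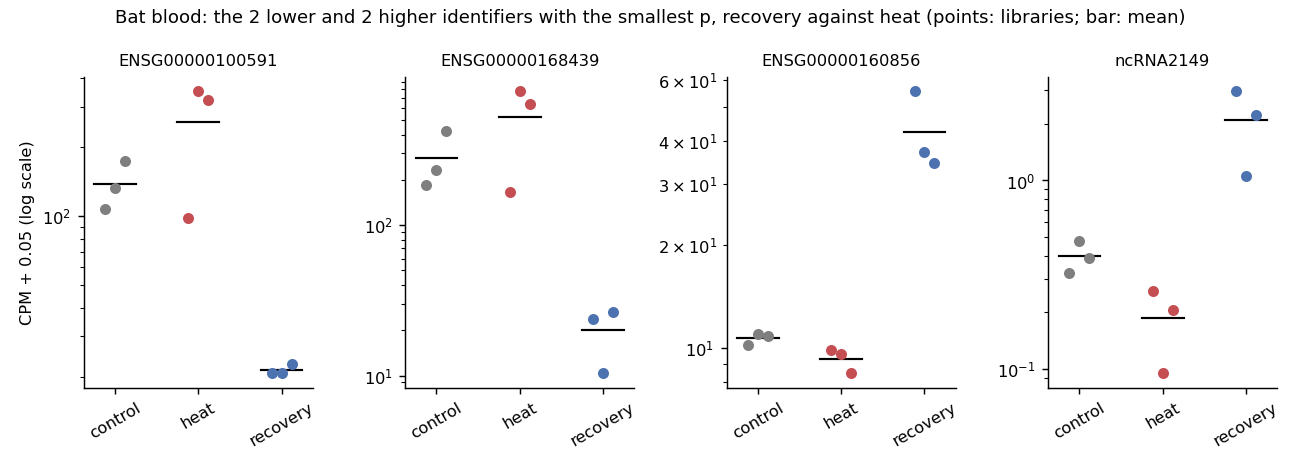
CPM plus 0.05 on a log scale (vertical) in each bat blood library at control, heat and recovery, for the 2 lower and the 2 higher rows with the smallest p; points are libraries and bars are group means. Recovery points lie below every other point for ENSG00000100591 and ENSG00000168439 and above every other point for ENSG00000160856 and ncRNA2149.

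The rows that were lower at recovery in bat lung had a second measurement in blood, made in libraries that played no part in choosing them. The labels do not say whether blood and lung came from the same bats, so these measurements may not be independent. In lung, edgeR called 24 of 19149 rows (0.125%), 21 (0.110%) lower and 3 (0.0157%) higher at recovery than at heat, and in bat muscle it called 1 of 15950 (0.00627%). In blood, 20 of those 21 rows had a negative log2 change, against 50.2% of all rows. For 18 of the 21 the unadjusted edgeR p was under 0.05 and the change negative, against 3.49% of all rows, and for 18 every recovery library lay below every heat library, against 8.52% of all rows. Their median log2 change in blood was −2.66, over a range of −4.71 to 1.05, against −0.00 over all rows. None of the 21 was called in blood by edgeR, and 17 of them were among the 81 rows DESeq2 called lower (0.515% of rows), which is 21% of that DESeq2 list and 81% of the lung list.

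For 17 of the 21 rows every recovery library was below every heat and control library. Over all rows that share was not computed, but it cannot exceed the 8.52% with every recovery library below every heat library. The summed level of the 21 rows was also compared. Their summed level was 1569, 1254 and 1462 CPM in recovery libraries 1, 2 and 3, against 4844, 20026 and 13011 CPM in the heat libraries and 5140, 6898 and 7959 CPM in the controls. The recovery sums were the 3 lowest of the 9, and those of heat libraries 2 and 3 the highest. The sum of heat library 1 was below all controls, but sums follow the most abundant rows. Row by row, heat library 1 was above all controls for 7 of the 21 and below all for 6. The shares of all rows with these orders were not computed, so the counts are descriptive. The median log2 level of the 21 rows relative to the control mean was 0.09 in heat library 1, against 1.87 in heat library 2 and 1.06 in heat library 3. The median log2 change of the rows was −1.42 at recovery against control, with 20 of 21 negative (47.2% of all rows), and 1.15 at heat against control, with 19 of 21 positive (50.3% of all rows). Recovery against control shares its recovery libraries with the main comparison, and heat against control shares its heat libraries. Both use the same control libraries, so none of these comparisons is independent of the others.

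The list itself was not stable in lung, where leaving out any 1 of the 3 recovery libraries gave 0 calls, heat library 3 or control library 1 gave 1, heat library 2 gave 7 and control library 2 gave 10. Without heat library 1 there were 46 calls and without control library 3 there were 189. Its blood median moved little between settings, from −2.44 to −2.97 over the alternatives run, and was −2.56 without recovery library 2. Without that library all 21 were negative (55.3% of all rows), and for 19 every recovery library lay below every heat library (12.4%). The single row of the 21 with a positive change in blood was at 2.23, 11.8 and 3.05 CPM at recovery, against 2.95, 3.21 and 2.02 CPM at heat, and its log2 change without recovery library 2 was −0.03. The 3 rows higher at recovery in lung were all above 0 in blood, while 50.2% of all rows were below 0. Their median log2 change was 1.07, over a range of 0.19 to 1.58. Their values without recovery library 2 were not computed.

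**Figure D3:**
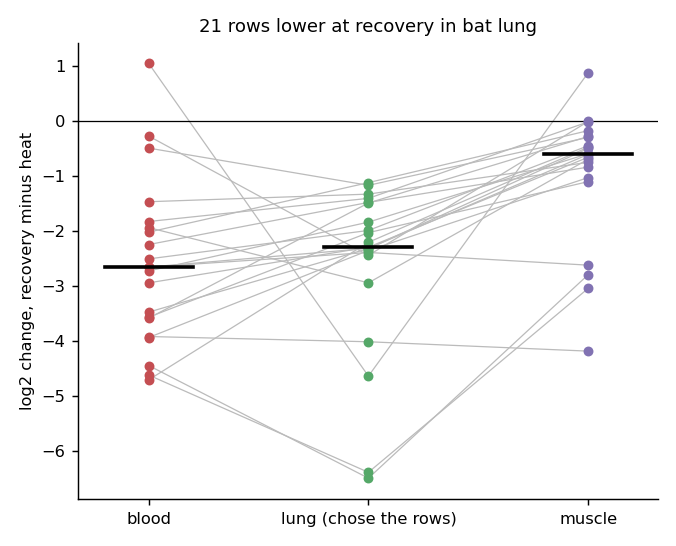
Log2 change, recovery minus heat (vertical), of the 21 rows lower at recovery in bat lung, in blood, lung and muscle; grey lines join the values of a row and black bars are medians. The lung values chose the rows; the blood median is −2.66 and the muscle median −0.61.

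Bat muscle gave smaller values for the same rows. The median of the 21 was −0.61 there, and 20 of 21 were negative, against 7970 of all 15950 muscle rows. A test of the difference between tissues was fitted over all 27 bat libraries. The change in blood was more negative than in muscle for 19 of the 21 rows. The median difference of the 21 was −1.81, against 0.003 over all rows. Of the 21, 12 were more negative in blood with an unadjusted edgeR p under 0.05 (4.56% of all rows), and 2 of these were called. Against lung, 14 of the 21 were more negative in blood. The median difference of the 21 was −0.42, against 0.02 over all rows. Of the 21, 5 were more negative in blood with an unadjusted edgeR p under 0.05 (2.52% of all rows), and 0 of these were called. The 2 calls among the 21 were rows less negative in blood than in lung. The lung values chose the rows and also enter this difference, which tilts it toward less negative values in blood. Without recovery library 2 the median difference was −1.71 against muscle and −0.26 against lung. Over all rows, 4 of 20395 (0.0196%) differed between blood and muscle, and 3 (0.0147%) between blood and lung.

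The pair of lower identifiers was among the 4 that differed from muscle. ENSG00000168439 was at 170, 184 and 200.1 CPM in muscle at recovery, against 138, 282 and 351 CPM at heat, and the muscle groups overlapped. Its log2 change in blood was more negative than in muscle by −4.22 ± 0.66 (SE), with an edgeR adjusted p of 0.00908. ENSG00000100591 was at 98.6, 109 and 129 CPM in muscle at recovery, against 89.8, 137 and 181 CPM at heat, and also overlapped. Its difference was −3.31 ± 0.49 (SE), with an edgeR adjusted p of 0.00726. Both differences held when any 1 heat or recovery library of blood was left out, with edgeR adjusted p up to 0.0333. Muscle libraries were not left out in turn. With limma voom the adjusted p was 0.0255 for ENSG00000100591 and 0.0579 for ENSG00000168439. Both rows were picked by their change in blood, which enters this difference and tilts it toward more negative values.

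In lung both of these rows were called lower at recovery, with smaller log2 changes than in blood. For ENSG00000168439 the lung change was −2.21 and for ENSG00000100591 it was −1.49. The difference between blood and lung was −2.50 ± 0.64 (SE) for ENSG00000168439, with an edgeR adjusted p of 0.388, and −2.10 ± 0.48 (SE) for ENSG00000100591, with an edgeR adjusted p of 0.253, so neither was called. ENSG00000160856 had a positive log2 change in lung, 0.90, and in muscle, 0.46, and was not called in either.

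The wider set that DESeq2 called in blood was also followed in the other tissues. Of its 81 lower rows, 80 were tested in lung and 76 of those were negative there, against 49.0% of all lung rows, and 67 of 75 were negative in muscle, against 7970 of 15950. Of the 38 higher rows, 31 of 36 were positive in lung, against 51.0% of all rows, and 18 of 27 were positive in muscle, against 7980 of 15950. The lower rows comprised 71 human identifiers and 10 numbered non-coding RNAs, none with a symbol. The one row with a symbol among the higher was Ptprv.

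Among rows with a symbol and a mean of at least 5 CPM, of which there were 51, none was called by edgeR. The 8 with the smallest p in each direction are named, and the unadjusted p was under 0.05 for 10 of the 51, against 10.4% of all rows. For 7 of the 51 all recovery libraries lay below all heat libraries, against 8.52% of all rows, and for 2 all lay above, against 7.64%. Their median log2 change was −0.21.

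Of the higher rows, Smpd5 and Ptprv had the smallest p. Smpd5, a sphingomyelin-cleaving enzyme, was at 39.5, 137 and 40.4 CPM in recovery libraries 1, 2 and 3, against 28.9, 13.6 and 18.1 CPM at heat. The groups did not overlap, and recovery library 2 was the highest of all. The log2 change of Smpd5 was 1.84 ± 0.53 (SE), with an edgeR adjusted p of 0.469, and 0.99 without recovery library 2. Ptprv, a receptor-type tyrosine phosphatase gene in the mouse, was at 3.09, 50.6 and 3.59 CPM at recovery, against 2.68, 1.85 and 0.778 CPM at heat. Recovery libraries 1 and 3 were just above the heat libraries, and library 2 was far above both. Its log2 change was 3.42 ± 1.09 (SE), with an adjusted p of 0.469 in edgeR and of 0.0442 in DESeq2. Without recovery library 2 the log2 change of Ptprv was 0.92, with an adjusted p of 0.918 in DESeq2, and the DESeq2 call was also lost without heat library 2, at 0.208, and without heat library 3, at 0.201. With any 1 control library left out DESeq2 gave Ptprv no adjusted p.

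Nol6, a nucleolar protein of ribosome assembly, was at 79.3, 178 and 98.1 CPM at recovery, against 30.8, 73.2 and 90.1 CPM at heat, which overlap. The mouse-annotated models Gm6034 and Gm20403, the P450 family member Cyp2t4, 1810049J17Rik and the death-domain receptor Nradd also had positive log2 changes, from 0.95 to 1.77, with overlapping groups. Recovery library 2 was the highest of the 6 for all of these. Without it, the log2 change was 0.90 for Gm6034, 0.49 for Nol6 and 0.43 for Cyp2t4, and the other 3 changed sign, with a log2 change of −0.18 for 1810049J17Rik, −0.25 for Gm20403 and −0.75 for Nradd.

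Of the lower rows, Smgc and Muc19 had the smallest p. Smgc, a submandibular gland protein in the mouse, was at 2.40, 0.167 and 1.24 CPM at recovery, against 5.21, 7.499 and 15.5 CPM at heat and 0.620 to 2.99 CPM in controls. The groups did not overlap, and recovery and control did. Muc19, a gel-forming mucin of saliva, was at 4.92, 0.502 and 4.44 CPM at recovery, against 9.10, 10.03 and 25.8 CPM at heat and 5.70 to 20.3 CPM in controls. Its log2 change was −2.17 and that of Smgc −2.86, with an edgeR adjusted p of 0.469 for both. In the mouse annotation the Smgc and Muc19 loci overlap on the same strand. Whether the bat models overlap is not given, so reads of the pair may not be separable and the rows are not taken as independent.

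EIF4G2, a translation factor that acts in cap-independent initiation, was the most abundant of the lower rows. It was at 600.5, 230.0 and 558 CPM at recovery, against 984, 692 and 831 CPM at heat, without overlap. The log2 change of EIF4G2 was −0.85 ± 0.43 (SE), with an edgeR adjusted p of 0.501, and −0.51 without recovery library 2. Fbxw17, an F-box protein of ubiquitin ligases, was at 6.58, 6.02 and 5.13 CPM at recovery, against 8.57, 16.3 and 14.0 CPM at heat, the most even recovery group among the 16 named rows by SD relative to mean. The sperm metalloprotease gene Adam1a and the model Gm6377 also did not overlap between groups, with log2 changes of −1.05 for Adam1a and −1.24 for Gm6377. Gm10197, at −1.44 and at −0.95 without recovery library 2, and the butyrophilin-like Btnl10, at −1.35, did overlap. Without heat library 1 the change of Btnl10 was 0.02.

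**Figure D4:**
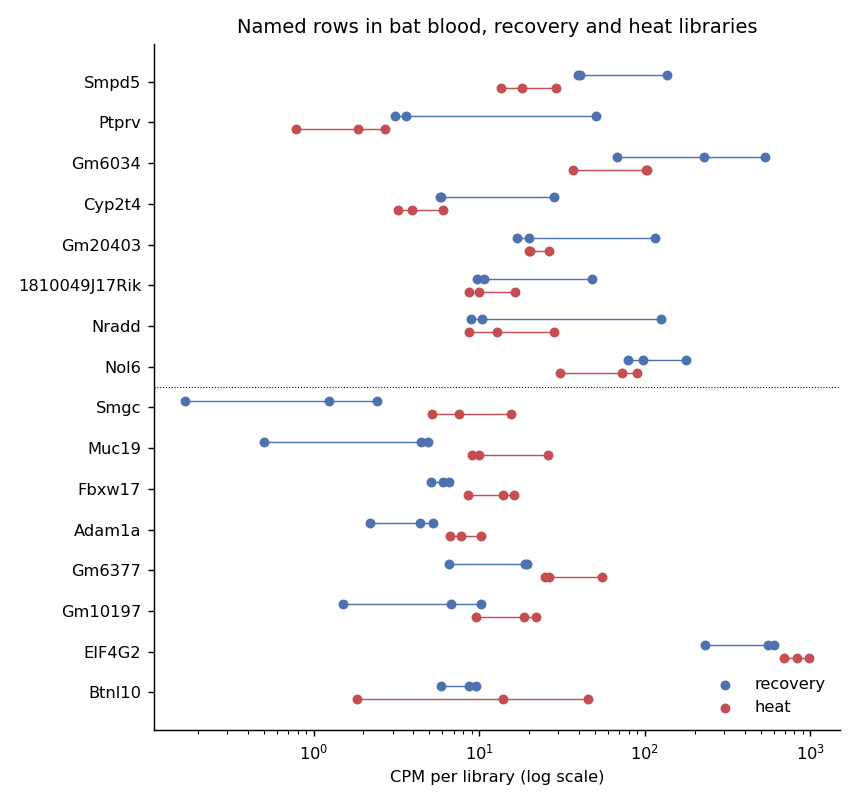
CPM per library on a log scale (horizontal) of the 16 named rows, 8 with positive log2 changes above the dotted line and 8 with negative ones below it; for each row the recovery libraries are drawn above the heat libraries and a line joins each group. In the upper block 1 recovery library, library 2, lies far to the right of the other two for most rows.

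T cell receptor segments were present in 25 rows, 16 of them tested. This set was put together by name after the values were seen. All 16 had a negative log2 change, against 50.2% of all rows, and the median was −0.69. By edgeR 0 were called, against 0% of all rows, and 0 had an unadjusted p under 0.05, against 10.4%. The 16 rows share libraries and sequence, so they are not independent observations. Their summed level was 95.7, 19.6 and 134 CPM at recovery, against 126, 174 and 83.9 CPM at heat and 90.7, 31.4 and 168 CPM in controls. Recovery and heat overlapped, and recovery library 2 was the lowest of the 9. Without recovery library 2 the median of the 16 was −0.16, without heat library 2 it was −0.27 and without recovery library 3 it was −1.25, so its size turned on single libraries.

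The same segments bear on the tissue label. Over all 25 rows the sums were 18.2 to 174 CPM in the 9 blood libraries, against 10.9 to 19.3 CPM in lung and 0.412 to 4.97 CPM in muscle. Blood libraries were above lung libraries except for recovery library 2, the lowest in blood, which lay within the lung range. Segment rows share sequence with each other, so single rows are uncertain and the sum is given.

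**Figure D5:**
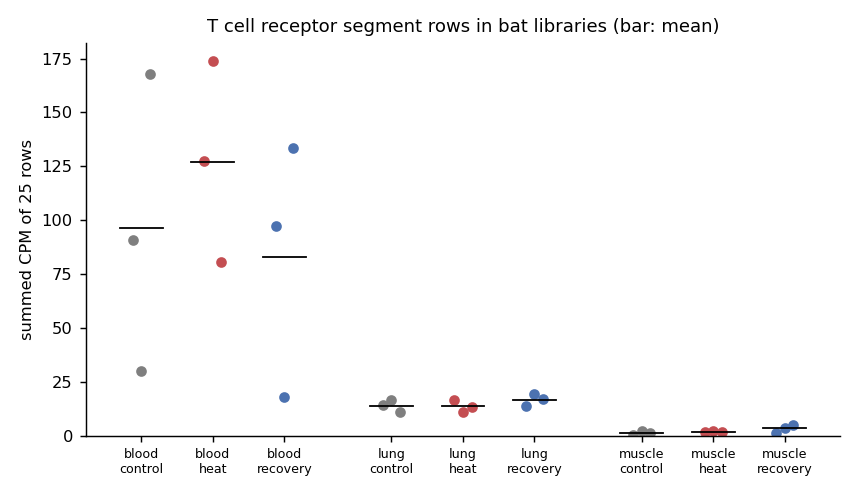
Summed CPM of 25 T cell receptor segment rows (vertical) in each bat library of blood, lung and muscle at control, heat and recovery; points are libraries and bars are means. Blood values spread from 18.2 to 174 CPM with recovery and heat overlapping, and lung and muscle lie at or below 19.3 CPM.

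Other immune genes with a mouse symbol were looked up by name after the values were seen, and none was called. Tlr13, a mouse sensor of bacterial ribosomal RNA, was at 51.7, 42.0 and 54.7 CPM at recovery, against 57.4, 31.8 and 95.3 CPM at heat. Plac8, a gene abundant in mouse white blood cells, was at 36.7, 44.2 and 19.6 CPM at recovery, against 14.1, 19.9 and 60.8 CPM at heat. Both overlapped widely, with log2 changes of −0.31 for Tlr13 and 0.08 for Plac8, and −0.19 for Tlr13 and −0.13 for Plac8 without recovery library 2, and heat library 3 was the highest of the 6 for each. Gpr141b, an orphan receptor gene, was at 2.12, 0.418 and 1.35 CPM at recovery, against 3.21, 4.97 and 2.54 CPM at heat, without overlap, with an unadjusted edgeR p of 0.0392 and an adjusted p of 0.475, and its unadjusted p was 0.0649 without recovery library 2. The neutrophil granule gene Ngp and the antimicrobial gene Wfdc21 had positive log2 changes, of 1.40 for Ngp and 2.37 for Wfdc21, with overlapping groups, and the change of Ngp was 0.93 without recovery library 2. Trem3, a myeloid receptor gene of the mouse, had a log2 change of −1.36, with overlapping groups.

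Whether the change in bat blood differed from that in mouse blood could be tested only for shared symbols. Of 660 symbols present once in each table, 64 passed the filter in both species, and the mouse had 2 recovery and 2 heat libraries. The difference was called for 1 of the 64 (1.56%). Ahsa2, a co-chaperone that stimulates the ATPase of HSP90, was at 1.89, 3.85 and 3.13 CPM at recovery in bat blood, against 3.21, 3.07 and 2.39 CPM at heat and 0.995 to 1.80 CPM in controls. In mouse blood it was at 7.10 and 7.69 CPM at recovery, against 96.6 and 49.7 CPM at heat. Bat groups overlapped, while the mouse recovery libraries lay far below the mouse heat libraries.

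The log2 change of Ahsa2, recovery minus heat, was 0.03 ± 0.49 (SE) in bat blood, −0.19 there without recovery library 2, and −3.31 ± 0.33 (SE) in mouse blood, with an edgeR adjusted p of 0.0270 in the mouse. Bat minus mouse, the difference was 3.33 ± 0.76 (SE), with an edgeR adjusted p of 0.0398. The call was lost, at adjusted p of 0.0781 to 0.0922, when bat heat library 1, 2 or 3 or bat recovery library 3 was left out. It was kept without recovery library 2, at 0.0222. In the mouse annotation Ahsa2 overlaps Usp34 on the other strand, and the strand setting of the counting is not stated. Reads of the pair may therefore not be separable in mouse blood, and whether the models overlap in the bat is not given.

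Of the 64 shared rows, 7 were called in the fit of mouse blood alone, where 633 of 15869 rows (3.99%) were called. Of the 7, 1 had an unadjusted p under 0.05 in bat blood with the same sign, and 8 of the 64 shared rows (12.5%) had such a p in either direction. Gpr141b was that row, at 0.126 and 0.181 CPM at recovery in mouse blood, against 1.09 and 1.43 CPM at heat. Cmah, which makes the sialic acid Neu5Gc, was called higher at recovery in mouse blood, with a log2 change of 0.78 and an edgeR adjusted p of 0.0425. Its log2 change in bat blood was −0.02, or 0.30 without recovery library 2, and the difference, bat minus mouse, was −0.80 ± 0.67 (SE), with an adjusted p of 0.599. Of the 64 shared rows, 35 had opposite signs in the 2 species.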

How the data were processed

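The deposited values are whole-number read counts per row and library, not normalized by the authors. STAR 2.7 was the aligner and featureCounts the counter, per the submitters' processing notes, which name GRCm39, a mouse build, also beside the bat samples. The bat assembly, its annotation and the strand setting are not given in the sources used here. Per the labels, TRIzol was used to extract the RNA and a directional NEBNext kit to build the libraries.

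The 9 bat blood libraries (12.5 to 21.7 M counts) were fitted together in edgeR 4.0.16 (limma 3.58.1, R 4.3.3): filterByExpr (minimum count 10, minimum total 15), TMM scaling, robust quasi-likelihood test of recovery minus heat, Benjamini-Hochberg adjustment over all rows, calls at an adjusted p under 0.05. CPM uses TMM library sizes. DESeq2 1.42.0 was an alternative. Differences between tissues were interaction tests over 27 bat libraries, and between species over 15 blood libraries. Mouse identifiers were matched to symbols in a mouse annotation (758 of 762). Named rows were the called rows with a symbol and 5 CPM and, as none was called, the 8 of each direction with the smallest p, plus up to 2 identifiers without a symbol per direction. The members and lists were chosen with earlier results of these data known. Scripts were tested on simulated data. Within the heat group and within the recovery group of bat blood, no 2 libraries were copies. The labels do not say that the 1 to 3 replicate numbers pair the libraries, so the main test had no replicate block.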

Additional observations from a re-analysis of the deposited data

Results flagged for a closer look

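The change from heat to recovery differed between tissues for a few rows, by edgeR tests of the difference itself over 27 bat libraries. Blood and lung differed in 3 rows, and blood and muscle in 4. Among the rows that differed from muscle, ENSG00000100591 had a difference of −3.31 and ENSG00000168439 one of −4.22, blood minus muscle, on the log2 scale. With limma voom ENSG00000168439 was not called, at an adjusted p of 0.0579.

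Blood of the bat and of the mouse differed in 1 of 64 shared rows. For AHSA2 (Ahsa2) the difference, bat minus mouse, was 3.33 on the log2 scale.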

How the results depend on the processing

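The count of edgeR calls in bat blood was 0 under RLE, upper quartile or total count scaling, a minimum count of 50, the 6 heat and recovery libraries alone and a test without robust estimation. It was 3, all lower, with no filter on low counts, and DESeq2 called 119, 38 higher and 81 lower. Leaving out 1 library gave 0 to 6 edgeR calls, 0 higher and 0 to 6 lower, the 6 coming without heat library 1, and 54 to 451 DESeq2 calls. DESeq2 called 54 (9 higher, 45 lower) without heat library 2, 79 (26 higher, 53 lower) without heat library 3, 375 (293 higher, 82 lower) without recovery library 3 and 451 (335 higher, 116 lower) without recovery library 1. Total counts alone moved the median log2 change of all rows to 0.21, against −0.00 under TMM. Of 357 recomputed values of named rows, 344 kept their direction and side of the threshold, 9 became called and 4 reversed (1810049J17Rik, Gm20403 and Nradd without recovery library 2, Btnl10 without heat library 1). Leaving out 1 library, the log2 change ranged from −0.178 to 1.31 for 1810049J17Rik, from −0.253 to 1.58 for Gm20403, from −0.751 to 2.14 for Nradd and from −1.90 to 0.0216 for Btnl10. The blood minus lung count of 3 was 7 with limma voom and 1 to 12 leaving out 1 library (6 without heat 2, 12 without recovery 1, 1 without recovery 3). The blood minus muscle count of 4 reached 26 without heat 1, 14 without recovery 1 and 7 without recovery 2. The blood minus mouse count of 1 was 0 without heat 1, 2 or 3 or recovery 3. The causes were not tested.

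The labels do not say whether the replicate numbers pair the libraries. Same-numbered recovery and heat libraries correlated at 0.17, −0.20 and −0.22 in their deviations, and recovery library 2 correlated best with heat library 3. With so few libraries a group, these values cannot show whether the numbers mark shared animals or days. With the numbers as a replicate block, bat blood again had 0 calls, and the bat minus mouse count became 0. The median of the 21 lung rows was −2.61 with the block, and that of the T cell receptor rows −1.16.

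With 3 libraries a group and this spread, absence of a call does not show absence of a change. List medians and a scaling without red cell genes were not run, since the list members had no tested row by name.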
